A study of Mus musculus with 12 samples.

Results

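Adarb2 and Cnr1, a pair of genes that mark hippocampal interneurons born in the caudal ganglionic eminence, each carried 1 of the 529 unique m6A peaks listed as differential between young and aged mouse hippocampus. The members were every unique peak of the deposited table assigned to either gene name, which gave 2 peaks, 1 per gene. The peaks were measured by MeRIP-seq, in which poly(A) RNA is fragmented, the pieces bound by an antibody to m6A (N6-methyladenosine) are recovered, and their reads are counted. The immunoprecipitated (IP) libraries came from male C57BL/6 mice, 3 young mice of 3 months and 3 aged mice of 20 months, each library from the hippocampus of a separate mouse, and the mice were picked from a qPCR pre-test. The labels name no transgene and no treatment. The 6 input libraries were not analysed here, so a difference in IP reads does not separate methylation from the amount of transcript.

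m6A is placed on mRNA and its precursors mainly by the METTL3 and METTL14 methyltransferase, within the 5-letter motif DRACH, where D stands for A, G or T, R for A or G, and H for A, C or T. Adarb2 encodes ADAR3, a brain protein of the adenosine deaminase family that binds double-stranded RNA and for which no deaminase activity has been detected. Cnr1 encodes the CB1 cannabinoid receptor, which couples to inhibitory G proteins and lowers transmitter release from axon terminals, most densely on those of cholecystokinin basket cells, with less on glutamatergic terminals. In whole tissue, fewer cells of a type and less RNA per cell cannot be told apart.

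The Adarb2 peak lay in an intron and the Cnr1 peak in the 5'UTR. The Adarb2 peak (ENSMUSG00000052551, mm10 chr13:8330619-8330819, plus strand, 200 bases) fell in intron 1 of Adarb2-201, an intron of 355.783 kb. It was 127.299 kb beyond exon 1 and 228.284 kb before exon 2. The short non-coding transcript Adarb2-204 has its exon 2 closer, 8.805 kb past the peak. The Cnr1 peak (ENSMUSG00000044288, mm10 chr4:33924637-33924844, plus strand, 207 bases) covered bases 7 to 213 of the transcript Cnr1-201, inside its exon 1 of 527 bases. The peak ended 376 spliced bases before the start codon, and Cnr1-202, which starts from a later first exon, does not contain it.

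**Figure D1:**
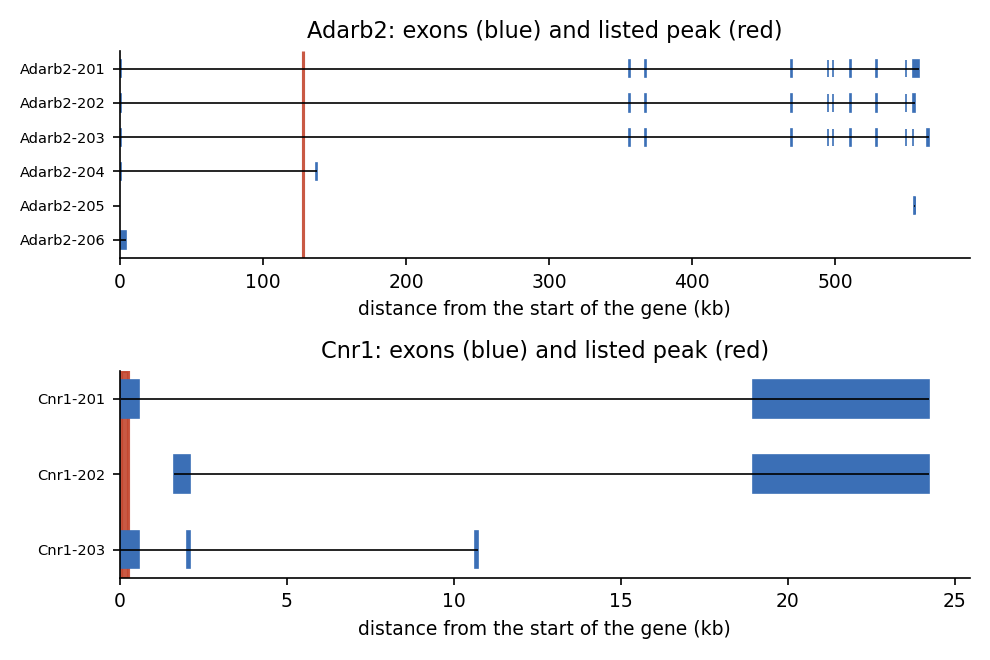
Exons of each GENCODE transcript (blue boxes), introns (black lines) and the listed peak (red band) of Adarb2 and Cnr1, by distance from the start of the gene in kb. The Adarb2 peak sits 127.299 kb into intron 1, with no exon of any transcript under it, while the Cnr1 peak sits in exon 1 of Cnr1-201 and Cnr1-203.

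The sequences are shown because the peaks differ in composition as well as in position. The Adarb2 peak, on its annotated strand and 5′ to 3′, is given whole with every AGACA in capitals.
Adarb2: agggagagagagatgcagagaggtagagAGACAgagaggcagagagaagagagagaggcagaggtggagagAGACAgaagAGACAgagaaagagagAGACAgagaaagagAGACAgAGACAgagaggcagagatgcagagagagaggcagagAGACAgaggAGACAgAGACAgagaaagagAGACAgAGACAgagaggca
The peak consisted entirely of soft-masked repeat sequence (100% of bases) and was 89.0% purine, with 46.5% A, 42.5% G, 9.0% C and 2.0% T. It held 11 DRACH matches, all of them AGACA, and none on the opposite strand, where 82.4% of listed peaks had a match. The study's methods do not state whether reads were counted by strand, so the strand used here is that of the gene annotation. AGACA, counted on the annotated strand with overlaps allowed, was present in 19.3% of the 529 listed peaks and DRACH in 85.1%. The Adarb2 peak held no GGAC, a core m6A motif that 68.4% of listed peaks contained, and it held 4 copies of GGCAGAG, which 9.64% of listed peaks contained. It is part of a repeat block of 362 bases (mm10 chr13:8330589-8330950) with 19 AGACA and 88.1% purine. All of its 151 stretches of 50 bases occurred once in the chromosomes of GRCm38, the assembly of mm10, when both strands were searched for exact copies. Stretches with mismatches were not searched.

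The Cnr1 peak held 2 DRACH matches, and each is given with its flanks and with the motif in capitals.
Cnr1 site 1: cgagccagAGACAgcgcgcgagctga
Cnr1 site 2: agggagaggcagGGACCtcaagcagggcgc
The first site, AGACA, started at base 9 of the peak (mm10 chr4:33924638-33924663 for the stretch shown) and the second, GGACC, at base 38 (mm10 chr4:33924663-33924692). The peak was 76.8% GC, close to the median of 76.6% over the 231 listed peaks with a 5'UTR annotation, and only 9.18% of its bases were repeats. Its DRACH count equalled the median of 2 for those peaks, and its GGAC count was 2. Every stretch of 50 bases in it was also found once in the genome.

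IP reads at the Adarb2 peak were far higher in aged than in young hippocampus. Young libraries 1 to 3 held 61, 32 and 39 reads, and aged libraries 1 to 3 held 263, 94 and 198 reads. Every aged library exceeded every young library even in raw reads. The recovered sizes of the aged libraries were all smaller than those of the young ones. By reads in listed peaks the order differed, with 697362 in aged library 1 against 537133 and 465628 in young libraries 1 and 3. As counts per library read times 1000000 (CPM, with library sizes recovered from the deposited abundances), the values were 4.09, 2.5 and 2.42 in young and 21.0, 15.3 and 22.7 in aged libraries. The highest upper bound of the exact 95% Poisson intervals was 5.25 CPM in the young libraries (library 1), and the lowest lower bound was 12.3 CPM in the aged libraries (library 2), where intervals cover counting error only. The mean went from 3.00 ± 0.941 to 19.6 ± 3.88 CPM (SD, n = 3 each), a ratio of 6.54. The log2 fold change was 2.71 (SE 0.39, edgeR quasi-likelihood test, adjusted p = 0.000906 over the 529 peaks).

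The Adarb2 fold change ranked first among the 529 listed peaks, while the peak's mean level of 11.3 CPM ranked 490 from the top. In the young libraries the peak was near the bottom of the list, with 0.756% to 1.89% of listed peaks below it, and in the aged libraries 14.9% to 24.2% lay below it. The peak was 1 of 6 that passed the test (adjusted p under 0.05 by the Benjamini-Hochberg method), all higher in aged libraries, so that 1.13% of listed peaks were called higher. The other calls of this test were 4 Erdr1 peaks and 1 Dlgap2 peak. With TMM and DESeq2 size factors 6 peaks were called higher, but 87 and 45 were called lower. Each of these scalings shared 5 calls with the main test. The table contains only peaks that the authors had selected as differential on these libraries, so a call is not independent evidence of a difference. The authors used edgeR's likelihood ratio test with an option to remove unwanted variation, a different model from the main test here.

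IP reads at the Cnr1 peak differed much less between the ages, and the difference did not pass the test. Young libraries 1 to 3 held 395, 446 and 496 reads, and aged libraries 1 to 3 held 492, 293 and 508 reads, with overlap in raw reads. The CPM values were 26.5, 34.8 and 30.8 in young and 39.3, 47.6 and 58.1 in aged libraries, so that after scaling all aged libraries lay above all young ones. Such separation with aged higher was found at 170 of the 529 peaks (32.1%), the Adarb2 peak included. The mean of Cnr1 was 30.7 ± 4.16 CPM in young and 48.3 ± 9.47 CPM in aged libraries (SD, n = 3 each), a ratio of 1.57. The log2 fold change was 0.65 (SE 0.31, edgeR quasi-likelihood test, unadjusted p = 0.0519, adjusted p = 0.167). Leaving out young library 2 brought it past the threshold (0.75, adjusted p = 0.00738), as it did for most listed peaks, with 513 calls in place of 6.

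**Figure D2:**
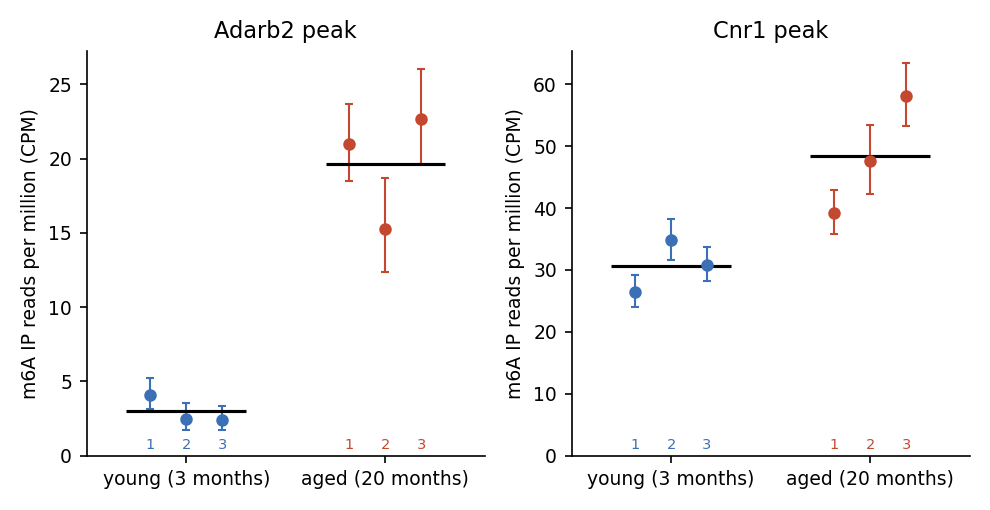
CPM (linear axes from 0) at the Adarb2 and Cnr1 peaks in each of the 3 young (blue) and 3 aged (red) libraries, numbered by replicate. Points carry exact 95% Poisson intervals and black lines are group means (3.00 and 19.6 CPM for Adarb2, 30.7 and 48.3 CPM for Cnr1).

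The distance between the members can be read without any library size. Per 100 reads at the Cnr1 peak, the Adarb2 peak held 15.4, 7.17 and 7.86 reads in young libraries 1 to 3 and 53.5, 32.1 and 39.0 reads in aged libraries 1 to 3. The groups did not overlap. The log2 ratio went from -3.39 ± 0.60 to -1.30 ± 0.37 (SD, n = 3 each), a difference of 2.09 or a 4.25-fold change in the ratio. The two-sided exact permutation p was 0.10, the smallest that 3 against 3 libraries allow, so this single value could not pass 0.05. With each library left out the difference was between 1.88 and 2.43. Its direction could not change, because the groups did not overlap.

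Other scalings lowered the log2 fold changes of both peaks by similar amounts, which ended no call for Adarb2 and turned the sign of Cnr1 under TMM and DESeq2 size factors. With column totals of the listed peaks, TMM factors or DESeq2 size factors, the median log2 fold change of all listed peaks fell from 0.59 to 0.14, 0.03 and 0.02. The log2 fold change of Adarb2 went from 2.71 to 2.14, 2.03 and 2.01 in that order. Relative to the median, Adarb2 was higher by 2.12 with the recovered sizes and by at least 1.99 with each of these scalings, and it passed the test under each of them (adjusted p = 0.0359, 0.0337 and 0.0493). Cnr1 stood 0.07 above the median with the recovered sizes and 0.04, 0.04 and 0.05 below it with the others, and its own log2 fold change turned from 0.65 to 0.11, -0.0066 and -0.029. As a share of the reads in listed peaks, times 1000000, Cnr1 had 735, 636 and 1065 reads in young and 706, 909 and 1015 reads in aged libraries, which overlapped, while Adarb2 had 114, 45.6 and 83.8 reads in young and 377, 291 and 395 reads in aged libraries, which did not.

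**Figure D3:**
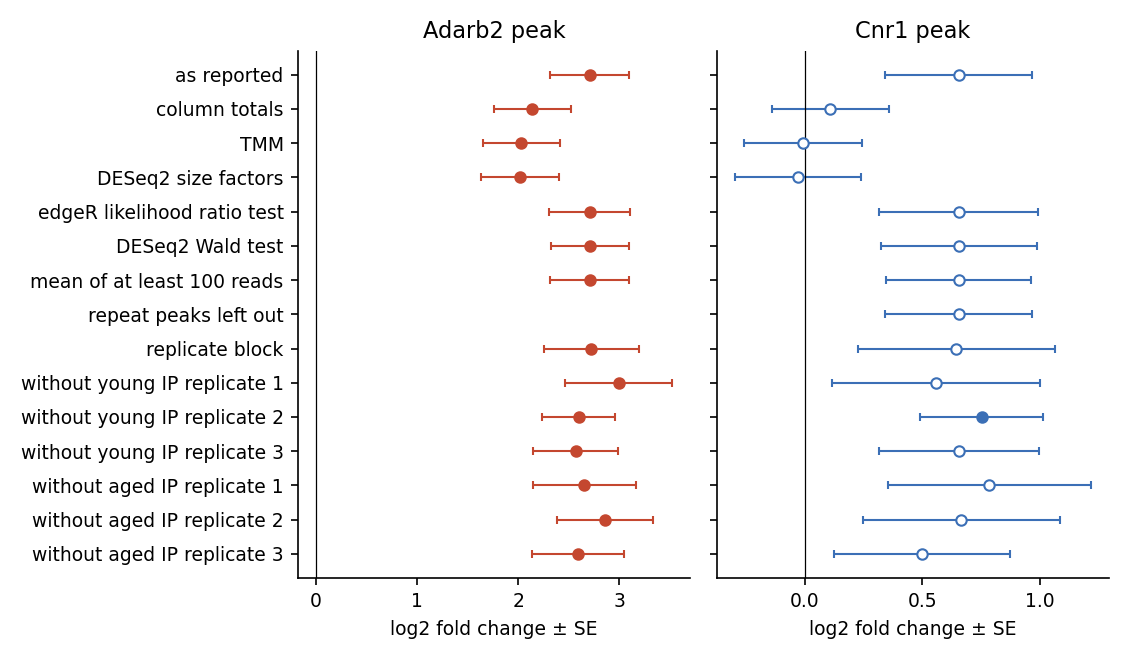
Log2 fold change (aged over young, ± SE) of the Adarb2 and Cnr1 peaks under each setting, with filled points where the adjusted p was under 0.05. Adarb2 stayed between 2.01 and 2.99 and passed wherever it was tested; Cnr1 ran from -0.029 to 0.78 and passed only without young replicate 2. No value exists for Adarb2 with repeat peaks left out.

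Among the listed peaks with a 5'UTR annotation, Cnr1 lay near the middle. Its log2 fold change of 0.65 lay beside their median of 0.64 (quartiles 0.56 and 0.74), with 102 peaks above it and 128 below. The authors had selected all listed peaks by a minimum fold change and an FDR on these same libraries. That selection limits the spread of the list, so this place does not describe Cnr1 among 5'UTR m6A peaks in general. Its mean level of 39.5 CPM compared with their median of 44.9 CPM. Of these 231 peaks, 226 had a positive log2 fold change, against 417 of all 529 listed peaks. Aged libraries lay above all young ones at 99 of the 231 peaks, against 170 of the 529. Of the 231, 0 passed edgeR's quasi-likelihood test, edgeR's likelihood ratio test or DESeq2's Wald test. Over the 529 peaks these tests called 6, 12 and 12. In the 5'UTR set 50 peaks had an unadjusted p under 0.05. Over the whole list the unadjusted p was under 0.05 for 91 higher and 48 lower peaks.

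**Figure D4:**
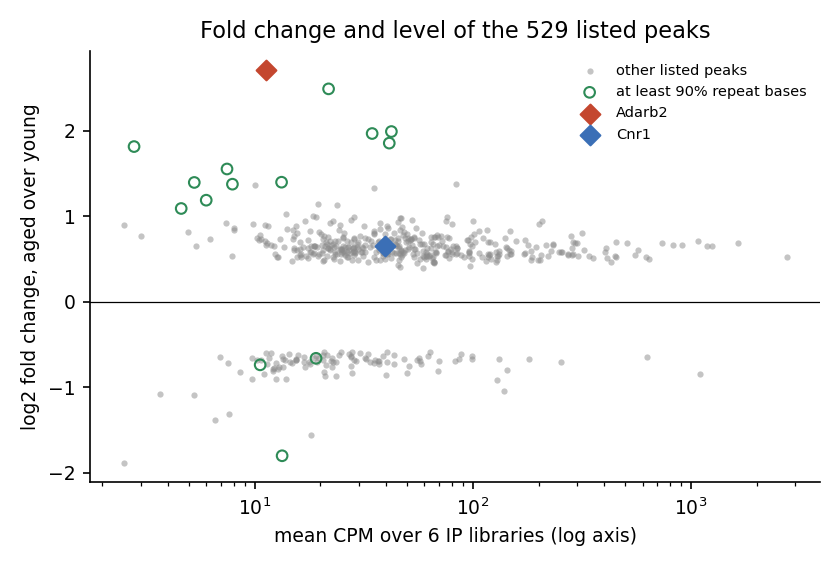
Log2 fold change (aged over young) against mean CPM over the 6 IP libraries (log axis) for the 529 listed peaks. Adarb2 (red diamond, 2.71 at 11.3 CPM) is the highest point, Cnr1 (blue diamond, 0.65 at 39.5 CPM) lies within the main band, and open green circles are the peaks with at least 90% repeat bases.

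Adarb2 shared its sequence type with other peaks that were higher in aged libraries. In all, 15 listed peaks consisted of at least 90% repeat bases. Split at 75% purine, a limit set after the values were seen, 12 of them in 8 genes were purine-rich (79.0% to 99.5%), and all 12 had a positive log2 fold change (1.09 to 2.71, median 1.68), a direction shared by 417 of the 529 listed peaks (78.8%). They lay in Adarb2, Erdr1 (5 peaks), Ppm1e, Epha5, Sv2b, Fars2, Nme7 and Tmem178. Of these 12, 5 passed the test, against 1.13% of all listed peaks, and 11 had aged libraries above all young ones, against 32.1%. The 1.13% stands for 6 calls that include these 5, so it is no separate baseline. The 5 were Adarb2 itself and 4 Erdr1 peaks close together on chromosome Y (90811325 to 90812686), so they are not 5 separate loci. No peak in the other genes passed. The 2 peaks with at least 75% purine but under 90% repeat were both higher in aged libraries, and neither passed. Their median log2 fold change was 0.75, against a median of 0.59 and an upper quartile of 0.70 over the whole list. The other 3 repeat peaks, in Klhl3, Anks1b and Asmt, were 56.0% to 68.5% purine and had log2 fold changes of -0.66, -0.74 and -1.80, none passing. Only 3 listed peaks had a higher purine share than Adarb2.

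The sequence of the Adarb2 peak aligned by blastn to 11 other listed peaks in 7 genes, all on the same strand, with 71.4% to 83.4% identity. These were the 5 Erdr1 peaks and 1 peak each in Tmem178, Sv2b, Fars2, Nme7, Ppm1e and Zbtb16. All but the Zbtb16 peak, 10 of the 11, are among the purine-rich repeat peaks already described and are no separate observation. Each had a positive log2 fold change (0.69 to 2.49, median 1.55), as did 78.8% of all listed peaks, and 4 passed (1.13% of all), all of them in Erdr1, the gene of erythroid differentiation regulator 1. The identity was highest for the peak in Sv2b, a synaptic vesicle glycoprotein gene (83.4% over 169 bases). This peak and the Erdr1 peak with the largest fold change are shown because each holds more copies of 1 of the repeat units seen in Adarb2. AGACA is in capitals in the Erdr1 peak (mm10 chrY:90812486-90812686, plus strand) and GGCAGAG in the Sv2b peak (mm10 chr7:75252911-75253111, minus strand).
Erdr1: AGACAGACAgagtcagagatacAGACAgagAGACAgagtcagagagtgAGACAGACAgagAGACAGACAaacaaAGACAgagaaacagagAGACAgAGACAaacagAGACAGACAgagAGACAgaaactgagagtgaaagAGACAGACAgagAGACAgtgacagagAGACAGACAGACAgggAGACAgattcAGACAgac
Sv2b: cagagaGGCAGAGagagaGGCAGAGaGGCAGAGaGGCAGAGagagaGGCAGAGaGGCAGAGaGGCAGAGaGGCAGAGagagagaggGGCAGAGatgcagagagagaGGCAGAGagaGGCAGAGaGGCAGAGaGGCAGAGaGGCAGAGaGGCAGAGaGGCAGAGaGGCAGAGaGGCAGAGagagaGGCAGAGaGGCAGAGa
The Erdr1 peak held 22 AGACA and the Sv2b peak 20 GGCAGAG, against 11 and 4 in Adarb2.

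The Erdr1 peak shown held 104, 106 and 73 reads in young libraries 1 to 3 and 400, 211 and 392 reads in aged libraries 1 to 3. Its log2 fold change was 2.49 (SE 0.35, edgeR adjusted p = 0.000906), close to that of Adarb2. The Sv2b peak went from 2.93 ± 1.82 to 7.64 ± 4.37 CPM (SD, n = 3), with overlapping groups and a log2 fold change of 1.39 that did not pass (edgeR adjusted p = 0.167). Per 100 reads summed over the 5 Erdr1 peaks, Adarb2 held 6.63, 3.73 and 5.78 reads in young and 9.20, 7.36 and 9.03 reads in aged libraries. The groups again did not overlap, but young library 1 (6.63) and aged library 2 (7.36) lay close together.

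Uniqueness in the genome differed among these repeats. Adarb2, the Ppm1e peak and the Erdr1 peak shown had all stretches of 50 bases in single copy, which was true of 3 of the 15 repeat peaks and of 480 of all 529 peaks. In the Sv2b peak 9.93% of such stretches were single copy, and in Tmem178 none were. The authors kept uniquely mapped reads, and the part that repeat mapping has in the Adarb2 value was not tested.

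**Figure D5:**
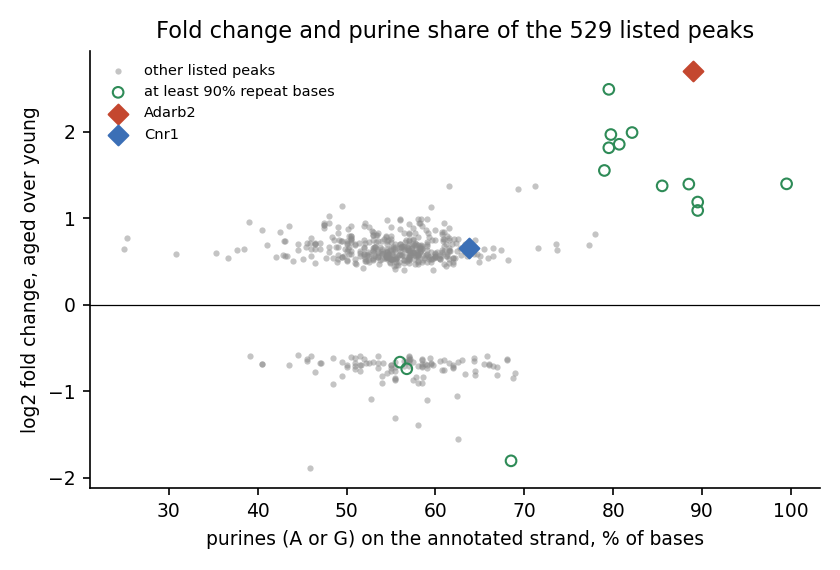
Log2 fold change (aged over young) against the share of purines on the annotated strand (% of bases) for the 529 listed peaks, with repeat peaks as open green circles. The 12 purine-rich repeat peaks, Adarb2 among them at 89.0%, lie between 1.09 and 2.71, and Cnr1 (63.8% purine) lies within the main band.

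Across the 6 libraries, the genes whose log2(CPM + 1) most resembled Adarb2 were Erdr1 (peak at 90811811, Pearson r = 0.99), Neat1, a nuclear long non-coding RNA of paraspeckles (r = 0.98), and a peak assigned both to Cdk19, a kinase gene of the Mediator complex, and to Cdk19os on the opposite strand (r = 0.98). For Cnr1 they were Kpnb1, an importin of nuclear transport (r = 0.97), Dennd2a, a regulator of Rab GTPases (r = 0.96), and Mex3b, an RNA-binding protein (r = 0.96). Adarb2 and Cnr1 themselves had r = 0.80. These are descriptions over 6 libraries that share age group and depth, chosen as the highest of the list.

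Some genes linked to either member by function were also listed. The list holds only differential peaks, so it does not show how many of these genes had an m6A peak. Over all 529 listed peaks, edgeR's quasi-likelihood and likelihood ratio tests and DESeq2's Wald test called 6, 12 and 12. An unadjusted p under 0.05 was found for 91 higher and 48 lower of the 529. Of 26 genes of endocannabinoid signalling, 3 had a listed peak, none passing and 1 with an unadjusted p under 0.05 (Plcb3): Cnr1, Abhd12, a hydrolase of 2-arachidonoylglycerol, and Plcb3, a phospholipase C upstream of its synthesis. Abhd12 went from 231 ± 113 to 338 ± 8.45 CPM and Plcb3 from 11.3 ± 4.49 to 19.8 ± 2.34 CPM (SD, n = 3). Of 24 effectors of CB1, 6 had a listed peak and 0 passed edgeR's quasi-likelihood test, its likelihood ratio test or DESeq2's Wald test (2 at an unadjusted p under 0.05), with a median log2 fold change of 0.56 against 0.59 over all listed peaks. The smallest p values among them belonged to the adenylyl cyclase genes Adcy2 (log2 fold change 0.97) and Adcy5 (0.58), the N-type calcium channel gene Cacna1b (0.83) and the inhibitory G protein gene Gnai2 (0.54). With TMM and DESeq2 size factors the values of Adcy5 and Gnai2 turned slightly negative.

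Among 29 genes of adenosine deamination and its known editing targets, Adarb2 and Unc80, a subunit of the sodium leak channel complex, were listed. The active enzymes Adar and Adarb1 had no peak in this table. Unc80 had 56.8 ± 18.3 CPM in young and 96.2 ± 17.2 CPM in aged libraries (SD over 3 libraries). Its log2 fold change of 0.76 did not pass (edgeR adjusted p = 0.167).

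Markers of the same interneuron class were looked up in the list. The share of all genes with a listed peak was not computed, so the number listed is not a result about this class. Of 23 genes of interneurons from the caudal ganglionic eminence, Adarb2, Cnr1 and Ndnf had a listed peak. Ndnf, a secreted factor of neurogliaform cells, had 39.1 ± 13.6 CPM in young and 24.7 ± 2.73 CPM in aged libraries (SD over 3 libraries), with overlap and a log2 fold change of -0.66 that did not pass (edgeR adjusted p = 0.167). Adarb2 was thus the 1 of these 3 that passed, where 1.13% of all listed peaks were called. Because Adarb2 was itself a chosen member, this repeats its own call and gives no rate for the class. Vip, Cck, Htr3a, Lamp5, Gad1, Gad2 and Slc32a1 had no listed peak, so the table gives no separate measure of how many such cells each library sampled.

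Markers of other cells were listed in small numbers and none passed edgeR's quasi-likelihood test, its likelihood ratio test or DESeq2's Wald test. At an unadjusted p under 0.05 stood Sv2b and Hapln2. From the medial ganglionic eminence list Unc5b had a peak (1 of 19 genes, log2 fold change 0.61), and of the 12 general inhibitory genes Gabbr1, a GABA-B receptor subunit, had 2 peaks (0.50 and 0.59). Excitatory genes gave 4 peaks in 3 genes, with -0.72 and -0.69 in Dsp, 0.72 in Grin2a and 1.39 in Sv2b. The Sv2b peak is the intronic repeat peak shown above, with 9.93% of its stretches of 50 bases in single copy. The oligodendrocyte genes Mobp, Hapln2 and Apod had 0.71, 1.14 and 0.76, the astrocyte gene Apoe 0.52, and the microglial genes C1qc and Tmem119 0.73 and 0.66, while no endothelial marker was listed. The part of cell composition in the Adarb2 and Cnr1 values was not tested.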

How the data were processed

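Hippocampal m6A IP libraries of 3 young and 3 aged male mice were compared at the listed peaks. According to the study's methods, the authors trimmed reads (Trimmomatic 0.36), removed rRNA and PhiX reads, aligned the rest to mm10 (STAR 2.5.3a), kept uniquely mapped reads, called peaks (MACS2 2.2.1) and counted reads per peak (Subread 1.6.4). The deposited counts are raw whole numbers per peak and library, and the deposited log2 average abundance is the authors' edgeR value over the IP libraries. Columns of fold change, likelihood ratio, p-value and FDR hold the authors' own comparison and were not used. Their methods name edgeR's likelihood ratio test with an additional option to remove unwanted variation (RUV). No RUV factor was fitted here, so the counts of calls come from a different model than theirs. The 862 rows gave 529 unique peaks.

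Listed peaks held 322474 to 701150 reads per library, 2.89% to 5.73% of library sizes of 6158014 to 16084217 reads, which were recovered by fitting edgeR's average log2 CPM to the abundance column (6 sizes and 1 dispersion, residuals under 1e-06 log2). These sizes are not independent of the authors' scaling. They replaced column totals in the main test, the quasi-likelihood F test of edgeR 4.0.16 in R 4.3.3. It set aged against young libraries without covariates (two-sided, Benjamini-Hochberg over 529 peaks at 0.05). The code was run on simulated counts with known changes. Their spread was a fixed value not fitted to these data, so that run does not show how the test performs here. The SE was derived from the F statistic. Single values were compared by exact permutation over libraries. Sequence features came from GRCm38 with starts counted from 0, transcripts from GENCODE, and alignments from blastn (BLAST+ 2.17.0, E-value up to 1e-05). Repeats were soft-masked bases.

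Members and gene lists were chosen with earlier results of these data known. Named genes were the members, listed members of each gene list (all if 5 or fewer, otherwise the 4 with the smallest p), the 3 most similar genes of each member by Pearson correlation, genes of peaks with at least 90% repeat bases, and genes aligning to the Adarb2 peak. Dlgap2 was named because it was among the 6 calls. Alternatives were other scalings, tests (likelihood ratio; Wald test of DESeq2 1.42.0), filters, a block for replicate number, and omission of each library.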

Additional observations from a re-analysis of the deposited data

How the results depend on the processing

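Leaving out each library in turn gave log2 fold changes of 2.57 to 2.99 for Adarb2, which passed each time, and of 0.50 to 0.78 for Cnr1, which passed only without young replicate 2 (0.75, edgeR adjusted p = 0.00738). The number of listed peaks passing then ranged from 4 to 513, with 513 without young replicate 2 and 14 without young replicate 3. The log2 Adarb2 to Cnr1 ratio differed by 1.88 to 2.43. For Cnr1, TMM gave -0.0066 and DESeq2 size factors -0.029. The same scalings, in that order, gave -0.015 and -0.023 for Gnai2, -0.054 and -0.073 for Adcy5, -0.031 and -0.033 for Cacna1a, and -0.020 and -0.028 for Apoe. They gave 93 and 51 passing peaks, 6 of them higher in each case and 87 and 45 lower. By construction both scalings bring the middle of a mostly higher list near 0. The likelihood ratio test of edgeR and the Wald test of DESeq2 each gave 12 calls, 11 higher and 1 lower. With the 15 repeat peaks left out, 0 of 514 passed edgeR's quasi-likelihood test and Adarb2 has no value. The cause of these changes in counts was otherwise not tested.

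With the replicate number as a block, the replicate block fit gave 2.72 for Adarb2 (edgeR adjusted p = 2.65e-06) and 0.64 for Cnr1 (adjusted p = 0.198), with 7 passing peaks. The mean within-number difference of the log2 ratio was 2.09 (exact sign-flip p = 0.25, the smallest that 3 pairs allow). Same-numbered libraries did not deviate together (correlations of -0.18, -0.035 and -0.017), so the numbers were not taken as pairs. Counting starts from 1 left the repeat shares and DRACH counts of both members within 0.1.

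The young values of Adarb2 rest on 32 to 61 reads.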
